A study of Homo sapiens with 5 samples.

Results

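Members are 71 protein-coding genes of the outer short arm of chromosome 6, taken from 110 protein-coding genes that start below 25 Mb there (GRCh38) and from 58812 genes in the count table. They were chosen by position and by a mean of 2 CPM or more over the 5 libraries, where CPM is a gene's read count scaled to library size, and FARS2 and ELOVL2 were left out by name. Of the other genes of the stretch, 37 fell below the CPM minimum. The members run from DUSP22 (chr6:291630-351355) to GMNN (chr6:24774931-24786099), outside the histone and MHC clusters. The stretch itself was selected on the fold changes of these same libraries, so its shift is described here and not tested.

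The libraries come from C4-2B, a human castration-resistant prostate cancer line of metastatic origin, grown in the same medium throughout. HOXB13 is a prostate-lineage transcription factor, and the series asked which transcripts depend on acetylation of its lysine 13, which the K13A change replaces with alanine. The groups are unedited parental C4-2B (2 libraries), the HOXB13 K13A clone C4K13A (2 libraries) and the HOXB13 K13A clone C5K13A (1 library). Each K13A group is 1 clone, so a clone's own history and the K13A change cannot be told apart within it. Whether same-group libraries are separate cultures is not stated, and the p-values reflect no more than library-to-library spread, possibly technical.

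The distal short arm of chromosome 6 carries genes of many unrelated functions. It holds a cluster of forkhead transcription factors, the clade B serpin protease inhibitors, regulators of differentiation such as TFAP2A, SOX4 and ID4, and cell cycle genes such as E2F3 and GMNN. E2F3, CDKAL1 and SOX4 are neighbours in a segment known for amplification in bladder cancer. DNA copy number was not measured in these libraries.

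Promoter sequences are shown for a head-to-head gene pair and for the one member with a HOXB13-type core motif. RefSeq (GRCh38.p14) gave a window from 250 bases before to 50 bases after the start for 67 of the 71 members. TDP2, which removes stalled topoisomerase from DNA ends, and ACOT13, a thioesterase of mitochondria, start 178 bases apart on opposite strands. The window of ACOT13 is chr6:24666827-24667126 on the plus strand. It holds the start of TDP2, and capitals mark the 179 bases from one start to the other.
ACOT13: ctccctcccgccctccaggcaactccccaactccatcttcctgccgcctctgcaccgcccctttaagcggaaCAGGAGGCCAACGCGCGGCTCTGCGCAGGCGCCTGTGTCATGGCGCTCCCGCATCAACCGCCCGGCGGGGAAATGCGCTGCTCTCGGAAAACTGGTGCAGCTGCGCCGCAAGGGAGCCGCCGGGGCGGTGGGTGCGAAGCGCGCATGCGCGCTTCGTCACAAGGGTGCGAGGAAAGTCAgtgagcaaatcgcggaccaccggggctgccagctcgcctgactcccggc
The window of GMNN, which encodes the replication-licensing inhibitor geminin, is chr6:24774687-24774986 on the plus strand, with the motif in capitals.
GMNN: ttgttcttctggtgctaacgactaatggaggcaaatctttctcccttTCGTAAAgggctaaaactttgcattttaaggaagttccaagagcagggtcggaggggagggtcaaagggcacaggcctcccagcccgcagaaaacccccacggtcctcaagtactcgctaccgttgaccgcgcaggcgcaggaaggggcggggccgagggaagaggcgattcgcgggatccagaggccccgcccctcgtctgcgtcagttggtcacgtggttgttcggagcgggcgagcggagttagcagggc

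HOXB13 binds cores such as CAATAAA and TCGTAAA, which do not overlap each other as words and were searched on both strands. TCGTAAA was found in 1 of the 67 member promoters (1.49%), that of GMNN, against 0.586% of 8698 promoters of autosomal genes at 2 CPM or more and 0.541% of all 35116 promoters. CAATAAA was found in 0 of the 67, against 2.13% and 4% in the same sets. A match is a run of letters and not a bound site. The member promoters had a median GC content of 67%, close to the 66% of the expressed autosomal set.

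Depth was 43190276 to 57282373 counts per library, with 27337 to 30647 genes detected. HOXB13 was transcribed in each library, at 337 to 449 CPM in parental and 345 to 353 CPM in the clones, which does not check a point substitution. All 8 luminal prostate markers were present, with summed levels of 4308 to 6134 CPM in parental and 4322 to 5174 CPM in the clones, to which KLK3 gave the most. Single markers differed more, TMPRSS2 with 711 and 319 CPM in parental against 358, 139 and 107 CPM in the clones, and KLK2 with 510 and 298 CPM against 439, 308 and 115 CPM. Their part in the results below was not tested. Basal markers KRT5, KRT14 and TP63 stayed below 1 CPM, as did all 4 leukocyte markers, and 5 of the 7 fibroblast and endothelial markers. The libraries also differed in mitochondrial ribosomal RNA, with 27.95 and 1764 CPM in parental libraries 1 and 2, 63.3 and 363 CPM in the C4K13A libraries and 671 CPM for C5K13A.

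The middle member was higher in both clones than in parental cells, by a small amount. In C4K13A the median fold change was 0.35 on the log2 scale, which is 0.31 above the median of 10874 expressed autosomal protein-coding genes (0.04). In C5K13A it was 0.29, or 0.23 above the autosomal median (0.05). These differences equal 1.24-fold and 1.18-fold. In C4K13A 59 of the 71 members lay above the autosomal median, and in C5K13A 58 did. The 2 comparisons share the parental libraries, so they are set side by side and not counted as separate support.

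Taken library by library, the clone medians lay further from the parental ones than same-group libraries lay from each other. The stretch was selected on these values and C5K13A has 1 library, so this is described and not tested. Relative to the parental mean and to the autosomal median of the same library, the median member was at 0.06 and -0.06 in parental libraries 1 and 2. These 2 values mirror each other by construction, since the parental mean is taken over the same 2 libraries. The median member was at 0.28 and 0.31 in the C4K13A libraries and 0.24 in C5K13A, on the log2 scale with 0.5 CPM added. All 3 clone values thus lay above both parental ones. Each clone library was 0.21 to 0.37 above each parental library by the same measure. The parental libraries differed from each other by 0.12, and the C4K13A libraries by 0.00. The summed CPM of the members was 2817 and 2624 in parental, 3340 and 3318 in C4K13A, and 3135 in C5K13A.

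**Figure D1:**
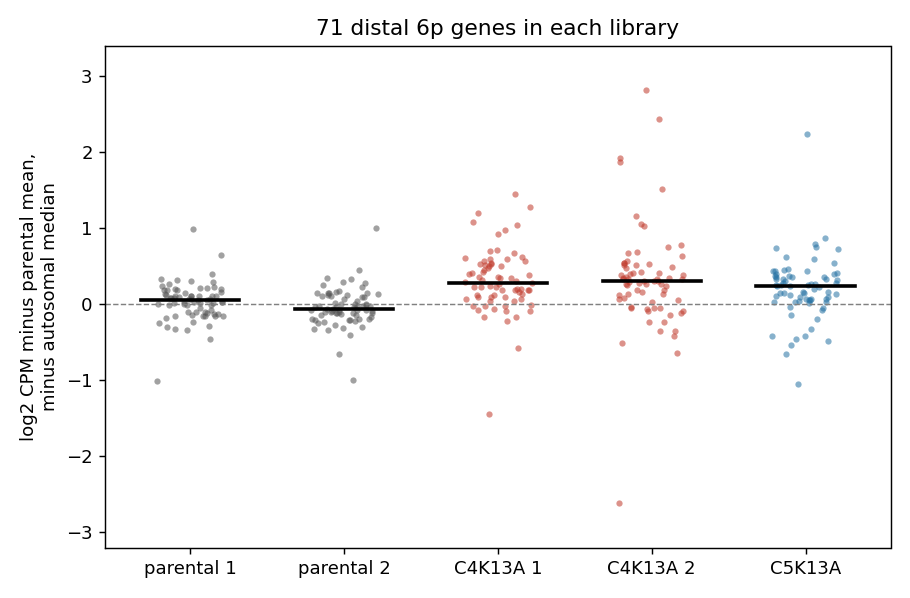
Each point is 1 of the 71 members in 1 library, as log2 CPM minus the parental mean and minus the autosomal median of that library, and the bar is the median. The parental medians are 0.06 and -0.06, and the clone medians lie between 0.24 and 0.31. Parental points mirror each other, since the parental mean is taken over those 2 libraries.

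Most members lay on the same side. In C4K13A the middle of the distribution, from the lower to the upper quartile, ran from 0.13 to 0.52, and for all autosomal genes from -0.21 to 0.24. In C5K13A the members' quartiles were 0.10 and 0.45, against -0.18 and 0.23. When members were divided by mean CPM into sets of 24, 24 and 23, the median above the autosomal one was 0.25, 0.31 and 0.31 in C4K13A from low to high. In C5K13A it was 0.19, 0.23 and 0.25. Autosomal genes divided the same way had values of -0.07 to 0.04 in C4K13A and -0.11 to 0.06 in C5K13A. Exon length was similar, with medians of 4602 bases for the members and 5281 for the autosomal set.

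**Figure D2:**
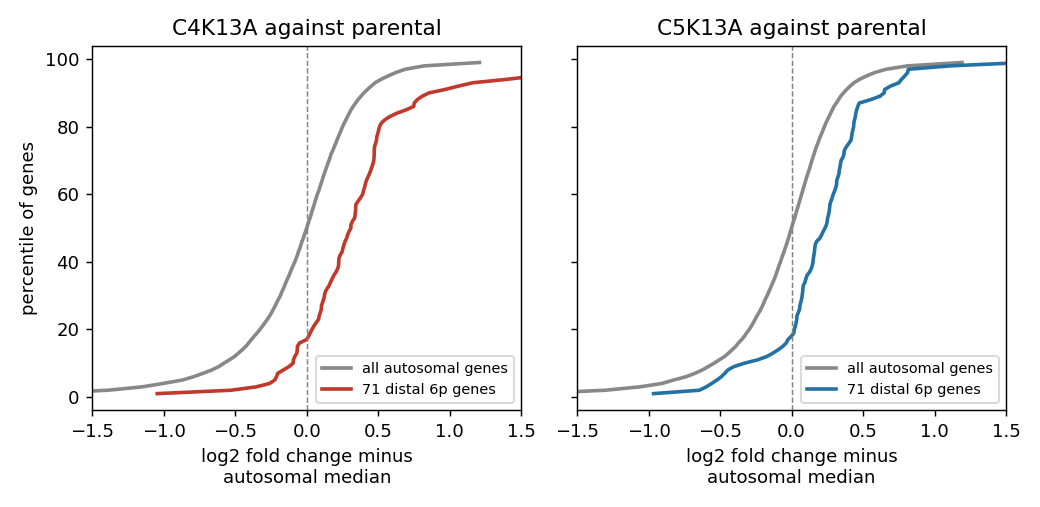
Lines give the percentile of genes (y axis) against the log2 fold change minus the autosomal median (x axis) in each clone, for the 71 members in colour and 10874 autosomal genes in grey. The member line lies to the right over most of its length, by 0.31 at the median in C4K13A and 0.23 in C5K13A.

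Tested one by one, no member passed the threshold. With edgeR's quasi-likelihood test over 22743 genes and Benjamini-Hochberg adjustment, 0 of 71 members passed 0.05 in C4K13A, where 0.699% of all genes did. The count was also 0 in C5K13A (0.0484% of all genes), in C5K13A against C4K13A (0.066%) and for both clones together over 20649 genes (0.203%). The smallest adjusted p was 0.0626 in C4K13A and 0.560 in C5K13A. At an unadjusted p under 0.05, 24 members were higher and 2 lower in C4K13A (4.27% and 7.93% of all genes). In C5K13A 6 were higher and 0 lower (2.09% and 4.37%), and over both clones 28 were higher and 2 lower (4.3% and 6.68%). Between the clones 1 was higher in C5K13A and 3 lower (3.49% and 2.93%). The limma-voom test called 0 members in each comparison, where it called 0.378% of all genes in C4K13A, 0.0533% over both clones and 0% in the other comparisons. DESeq2 called 10 members in C4K13A (3.64% of all genes), 7 over both clones (2.78%), 0 in C5K13A (1.12%) and 0 between the clones (0.805%), each share taken over genes with an adjusted p. The 10 were FOXQ1, FOXC1, GCNT2, PAK1IP1, TMEM14B, MAK, NEDD9, GFOD1 and NHLRC1, all higher, and ATXN1, lower. The stretch was chosen from these contrasts, so nothing is read from the counts against their backgrounds.

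Leaving out 1 library changed the edgeR count in C4K13A, and the share of all genes called changed with it. Dropping parental library 1 gave 3 member calls (1.38% of all genes) and dropping parental library 2 gave 11 (7.59%). Dropping C4K13A library 1 gave 5 (1.37%), and dropping C4K13A library 2 or C5K13A gave 0 (0.632% and 0.639%). In C5K13A it was 1 without parental library 2 (3.04%), and between the clones 1 without C4K13A library 1 (0.231%). In C4K13A those called were NEDD9, NHLRC1 and ATXN1 without parental library 1, and FOXQ1, FOXC1, MAK, NEDD9 and ATXN1 without C4K13A library 1. Without parental library 2 they were PAK1IP1, TMEM14B, MAK, NEDD9, TBC1D7, GFOD1, ATXN1, DEK, ID4, CDKAL1 and MRS2. ID4 was the one in C5K13A and ATXN1 the one between the clones.

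By the order of the libraries alone, all 3 clone libraries lay above both parental ones in 39 of 71 members, and in 17.7% of expressed autosomal genes. They lay below both in 2 members, ATXN1 and RNF144B, and in 12.9% of autosomal genes. Both C4K13A libraries exceeded both parental ones in 43 members (26.7% of autosomal genes) and lay below in 2 (22.2%). The C5K13A library exceeded both in 51 (38.6%) and lay below in 8 (28.5%).

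Among members at 5 CPM or more in the higher group, FOXC1, NEDD9, MAK, NHLRC1 and GCNT2 had the largest fold changes in C4K13A. NEDD9, a scaffold of focal adhesion and Src kinase signalling (chr6:11183298-11382348), had 3.45 and 6.11 CPM in the parental libraries, 13.7 and 18.9 CPM in those of C4K13A, and 8.30 CPM in the C5K13A library. The NEDD9 groups did not overlap, and C5K13A lay between parental and C4K13A. On the log2 scale the fold change was 1.77 ± 0.33 (standard error, SE) in C4K13A (adjusted p = 0.0626) and 0.80 ± 0.38 in C5K13A (adjusted p = 0.787). MAK, a kinase of male germ cells and primary cilia that androgen induces in prostate cells (chr6:10762723-10838555), had 4.34 and 6.62 CPM in the parental libraries. It had 14.1 and 16.9 CPM in those of C4K13A and 8.91 CPM in the C5K13A library, the same order as NEDD9. MAK stood at 1.5 ± 0.28 in C4K13A (adjusted p = 0.0626) and 0.70 ± 0.33 in C5K13A (adjusted p = 0.783).

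FOXC1, a forkhead transcription factor (chr6:1609972-1613897), had 2.66 and 1.97 CPM in the parental libraries, 5.38 and 10.5 CPM in those of C4K13A, and 3.76 CPM in the C5K13A library. The C4K13A libraries thus differed from each other by more than parental did, and all 3 clone values were above parental (1.78 ± 0.39 in C4K13A, adjusted p = 0.1001). NHLRC1, the ubiquitin ligase malin, had 6.17 and 4.57 CPM in the parental libraries, 12.09 and 12.04 CPM in those of C4K13A, and 6.22 CPM in the C5K13A library. It was apart from parental in C4K13A (1.17 ± 0.26, adjusted p = 0.102), while C5K13A exceeded the higher parental library by a small margin. GCNT2, which builds branched I antigen glycans (chr6:10492223-10629368), had 6.27 and 5.58 CPM in the parental libraries, 10.2 and 14.4 CPM in those of C4K13A, and 10.8 CPM in the C5K13A library. Its fold change was 1.05 ± 0.26 in C4K13A (adjusted p = 0.146) and 0.86 ± 0.31 in C5K13A (adjusted p = 0.685).

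With the same minimum, the largest fold changes in C5K13A were those of ID4, GFOD1, GCNT2, TBC1D7 and NEDD9. GFOD1, an oxidoreductase-domain protein, had 15.7 and 18.9 CPM in the parental libraries, 27.1 and 37.1 CPM in those of C4K13A and 31.5 CPM in the C5K13A library. Both clones were apart from parental, at 0.89 ± 0.22 and 0.87 ± 0.26 (adjusted p = 0.146 and 0.560). TBC1D7, a subunit of the TSC complex that restrains mTORC1, had 9.83 and 12.2 CPM in the parental libraries, 16.9 and 18.6 CPM in those of C4K13A, and 19.5 CPM in the C5K13A library. It stood at 0.68 ± 0.21 in C4K13A and 0.82 ± 0.25 in C5K13A (adjusted p = 0.242 and 0.587). ID4, an inhibitor of basic helix-loop-helix factors, had 0.0672 and 1.89 CPM in the parental libraries (4 and 96 counts), 1.84 and 8.07 CPM in those of C4K13A, and 5.25 CPM in the C5K13A library. The ID4 groups overlapped, and its fold changes of 2.35 ± 1.11 and 2.44 ± 1.25 depend on the parental library with 4 counts. The C4K13A value of ID4 was 0.92 without C4K13A library 2. Without parental library 1 the fold changes were 1.38 and 1.47, and without parental library 2, 6.14 and 6.23 (adjusted p = 0.0157 and 0.0332).

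A few members ran the other way. ATXN1, the transcriptional corepressor ataxin-1 (chr6:16299112-16761491), had 22.6 and 29.2 CPM in the parental libraries, 9.35 and 3.95 CPM in those of C4K13A, and 18.4 CPM in the C5K13A library. All 3 clone libraries were below parental, C4K13A by the most (-1.96 ± 0.38, adjusted p = 0.0727), with -0.50 ± 0.45 in C5K13A (adjusted p = 0.877). With 1 library left out, ATXN1 ran from -1.47 (adjusted p = 0.0854, without C4K13A library 2) to -2.70 (adjusted p = 0.00117, without C4K13A library 1) in C4K13A. It also passed without parental library 1 (adjusted p = 0.0351) and without parental library 2 (adjusted p = 0.0328). RNF144B, a ubiquitin ligase known as a p53 target, had 17.9 and 13.9 CPM in the parental libraries, 10.6 and 10.4 CPM in those of C4K13A, and 12.2 CPM in the C5K13A library. It was at -0.60 ± 0.22 and -0.38 ± 0.28 (adjusted p = 0.326 and 0.863). Between the clones the lowest adjusted p of any member was 0.595.

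Among the other members with the smallest values, DSP, RBM24 and CAP2 overlapped with parental in each clone. SOX4 and HIVEP1, among the smallest in C5K13A, overlapped with parental in C4K13A, but their C5K13A library lay below both parental libraries. DSP, the desmosomal plaque protein desmoplakin, had 249 and 106 CPM in the parental libraries, 178 and 133 CPM in those of C4K13A, and 121 CPM in the C5K13A library. All clone values thus lay between the parental ones, and the sign of the DSP fold change depended on which parental library was kept. RBM24, an RNA-binding splicing regulator, likewise had 35.5 and 69.9 CPM in the parental libraries, 45.3 and 38.6 CPM in those of C4K13A, and 55.3 CPM in the C5K13A library. CAP2, which binds actin monomers, had 24.2 and 17.2 CPM in the parental libraries, 21.8 and 14.8 CPM in those of C4K13A, and 20.2 CPM in the C5K13A library. BMP6, a bone morphogenetic protein, also differed widely within groups, with 6.29 and 1.28 CPM in the parental libraries, 7.63 and 3.30 CPM in those of C4K13A, and 1.25 CPM in the C5K13A library.

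**Figure D3:**
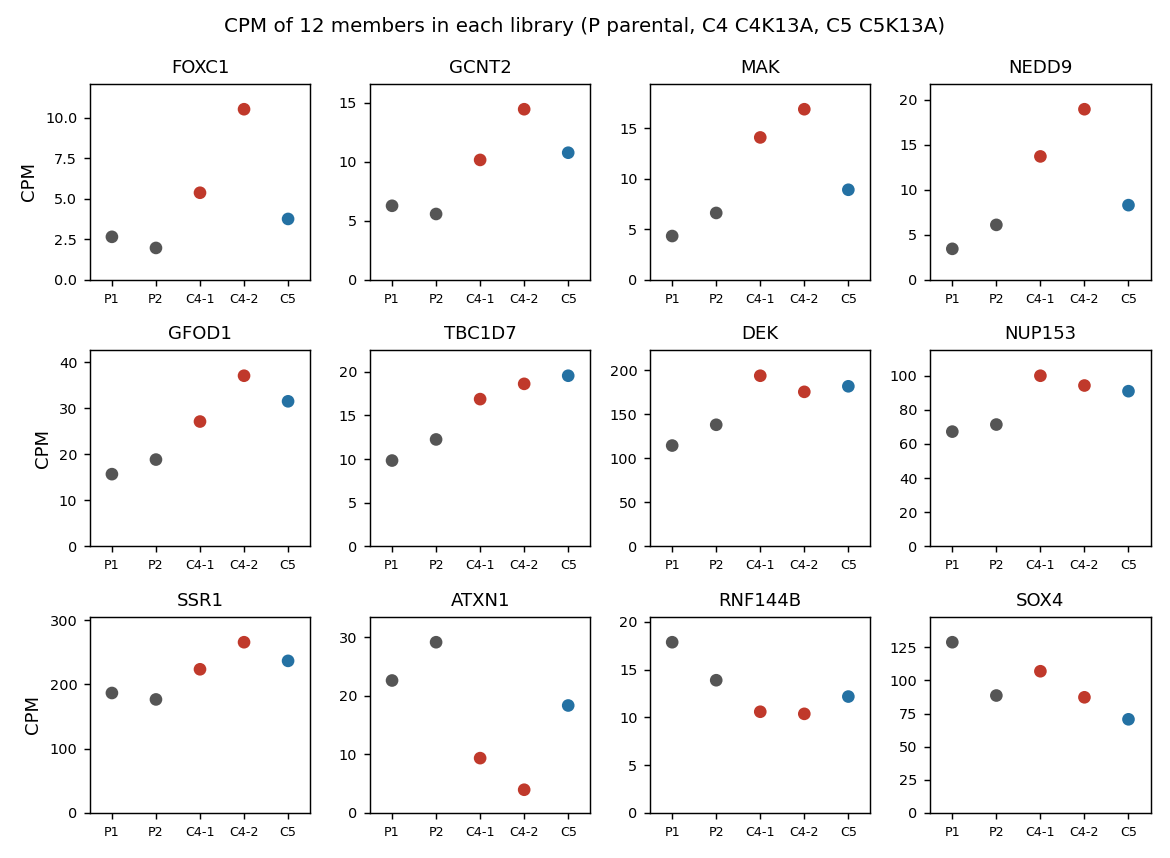
CPM (y axis, from 0) of 12 members in the 5 libraries: parental in grey, C4K13A in red and C5K13A in blue. In NEDD9, MAK, FOXC1, GCNT2, GFOD1, TBC1D7, DEK, NUP153 and SSR1 all clone points lie above both parental points, in ATXN1 and RNF144B below, and in SOX4 they overlap.

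The members were then grouped by role, and no role list held a member called by edgeR. Beside each count by role stand 59 and 58 of all 71 members above the autosomal median in C4K13A and C5K13A, and 39 of 71 members and 17.7% of autosomal genes with every clone library above parental. Of 11 listed transcription factors, 8 were members, with 6 of 8 above the autosomal median in each clone. FOXQ1 and ID4, among the 6, had parental means below 2 CPM and passed the minimum through the clones, so the filter favoured their place there. DESeq2 called FOXC1 and FOXQ1 in C4K13A and FOXC1 over both clones. RREB1, a zinc finger factor downstream of RAS, had 146 and 130 CPM in the parental libraries, 179 and 180 CPM in those of C4K13A, and 150 CPM in the C5K13A library. E2F3, which drives entry into S phase, had 34.4 and 35.0 CPM in the parental libraries, 54.8 and 46.2 CPM in those of C4K13A, and 40.3 CPM in the C5K13A library. Both had all clone libraries above parental. SOX4, a progenitor-type factor, did not, with 129 and 88.6 CPM in the parental libraries, 107 and 87.2 CPM in those of C4K13A, and 70.6 CPM in the C5K13A library (-0.62 ± 0.29, adjusted p = 0.781 in C5K13A). HIVEP1, a large zinc finger factor, had 82.0 and 63.8 CPM in the parental libraries, 79.0 and 64.2 CPM in those of C4K13A, and 54.8 CPM in the C5K13A library. CDKAL1, the tRNA-modifying enzyme that lies between E2F3 and SOX4, had 11.2 and 13.5 CPM in the parental libraries, 20.5 and 22.4 CPM in those of C4K13A, and 15.4 CPM in the C5K13A library, with no overlap.

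Chromatin and replication-licensing genes were all members, 7 of 7, with 6 above the autosomal median in each clone. Every clone library was above parental in 5 of the 7, beside 39 of all 71 members and 17.7% of autosomal genes. DEK, a chromatin-binding protein that is abundant in dividing cells (chr6:18223868-18264823), had 114 and 138 CPM in the parental libraries, 194 and 175 CPM in those of C4K13A, and 182 CPM in the C5K13A library. It stood at 0.55 ± 0.19 and 0.53 ± 0.23 (adjusted p = 0.290 and 0.769). WRNIP1, an ATPase that binds the Werner helicase, and KDM1B, a histone H3K4 demethylase, had smaller values, 0.29 ± 0.18 and 0.29 ± 0.18 in C4K13A, and 0.29 ± 0.22 and 0.37 ± 0.21 in C5K13A. JARID2, a cofactor of Polycomb complex PRC2, was the exception, at -0.03 ± 0.21 in C4K13A and -0.28 ± 0.26 in C5K13A.

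The list of RNA-processing, ribosome-assembly and nuclear-pore genes, which also holds EEF1E1, had 8 of 9 members above the autosomal median in C4K13A. In C5K13A 9 of 9 were above, RBM24 by a small margin (0.07 against the autosomal 0.05). NUP153, a nucleoporin of the nuclear basket, had 67.2 and 71.3 CPM in the parental libraries, 99.9 and 94.2 CPM in those of C4K13A, and 90.9 CPM in the C5K13A library. PRPF4B, a kinase of the spliceosome, had 62.1 and 65.0 CPM in the parental libraries, 93.9 and 86.8 CPM in those of C4K13A, and 83.7 CPM in the C5K13A library. In both genes the parental libraries were close together and all clone libraries higher, at 0.49 ± 0.17 and 0.51 ± 0.17 in C4K13A (adjusted p = 0.302 and 0.287). NOL7, a nucleolar protein, was at 0.35 ± 0.17 and 0.42 ± 0.20, and PAK1IP1, a factor of large-subunit ribosome assembly, at 0.83 ± 0.24 and 0.30 ± 0.29.

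Of 10 mitochondrial proteins, 9 lay above the autosomal median in C4K13A and 8 in C5K13A. All clone libraries were above parental in 6 of the 10, beside 39 of all 71 members and 17.7% of autosomal genes. TMEM14C, which carries protoporphyrin for haem synthesis, had 56.6 and 54.3 CPM in the parental libraries, 69.7 and 84.4 CPM in those of C4K13A, and 69.1 CPM in the C5K13A library. MCUR1, a regulator of the calcium uniporter, had 68.3 and 61.4 CPM in the parental libraries, 72.6 and 81.3 CPM in those of C4K13A, and 73.5 CPM in the C5K13A library. ECI2, an isomerase of fatty acid oxidation, was at 0.51 ± 0.18 in C4K13A and 0.03 ± 0.22 in C5K13A, where the library fell within the parental range. LYRM4, needed for iron-sulphur cluster assembly, was at -0.05 ± 0.18 in C4K13A.

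Small-molecule and nucleotide enzymes had 5 of 5 members above the autosomal median in C4K13A and 4 of 5 in C5K13A. The list also holds GCNT2 and CDKAL1, which act on glycans and tRNA. They were at 1.05 ± 0.26 and 0.79 ± 0.21 in C4K13A, and 0.86 ± 0.31 and 0.32 ± 0.25 in C5K13A. NQO2, a quinone reductase, had 34.5 and 35.6 CPM in the parental libraries, 41.9 and 44.7 CPM in those of C4K13A, and 49.6 CPM in the C5K13A library. TPMT, which methylates thiopurine drugs, was at 0.51 ± 0.21 and 0.66 ± 0.25, and GMDS, the first enzyme of GDP-fucose synthesis, at 0.26 ± 0.22 and -0.15 ± 0.27. TPMT and KDM1B form a second head-to-head pair, with starts 253 bases apart. In the first such pair TDP2 was at 0.44 and ACOT13 at 0.51 in C4K13A, and at 0.47 and 0.51 in C5K13A.

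Of 7 members listed under signalling, 4 lay above the autosomal median in C4K13A and 5 in C5K13A, beside 59 and 58 of all 71 members. The list includes RNF144B and the transcriptional corepressor ATXN1, the 2 members below parental in every clone library. RIPK1, the kinase that controls death and survival below the TNF receptor, had 21.0 and 21.2 CPM in the parental libraries, 28.2 and 34.3 CPM in those of C4K13A, and 29.2 CPM in the C5K13A library. MYLIP, the ubiquitin ligase of the LDL receptor, overlapped between groups, with 31.1 and 18.5 CPM in the parental libraries, 37.3 and 30.4 CPM in those of C4K13A, and 29.5 CPM in the C5K13A library. SERPINB6, an intracellular protease inhibitor and the single clade B serpin of 3 that passed the CPM minimum, had 96.9 and 86.7 CPM in the parental libraries, 119 and 120 CPM in those of C4K13A, and 116 CPM in the C5K13A library.

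Adhesion, cytoskeleton and trafficking genes had 7 of 10 members above the autosomal median in C4K13A and 8 of 10 in C5K13A. RANBP9, a subunit of the CTLH ubiquitin ligase, was at 0.41 ± 0.18 and 0.30 ± 0.21, and KIF13A, a kinesin motor of endosomes, at 0.32 ± 0.21 and 0.20 ± 0.25. Counts of the tubulin genes TUBB2A and TUBB2B are uncertain, since the genes are near-identical. Secretory genes had median fold changes of 0.17 in C4K13A and 0.11 in C5K13A, with 4 of 5 members above the autosomal median in each. SSR1, a subunit of the translocon-associated complex, had 186 and 176 CPM in the parental libraries, 223 and 266 CPM in those of C4K13A, and 236 CPM in the C5K13A library. TXNDC5, a protein disulphide isomerase, was at 0.17 ± 0.23 and 0.11 ± 0.29, and NRN1, the neuronal growth factor neuritin, at -0.06 ± 0.19 and 0.15 ± 0.23. C6orf62, a member of none of the lists, had 189 and 187 CPM in the parental libraries, 217 and 234 CPM in those of C4K13A, and 250.4 CPM in the C5K13A library.

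Counting could mix strands in part of the set, since the strand setting is not given. The span of 40 members, introns included, overlaps a gene of any class on the opposite strand, which need not reach their exons. Their median above the autosomal one was 0.36 in C4K13A and 0.26 in C5K13A, and that of the 31 others 0.19 and 0.16. Autosomal genes with and without such an overlap stood at -0.01 and 0.01 in each clone, and the part of antisense reads in the members' values was not tested.

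Along chromosome 6 the members' values were positive in each 5 Mb window. Relative to the autosomal median, the windows from 0 to 25 Mb had medians of 0.25, 0.16, 0.43, 0.25 and 0.40 in C4K13A, over 19, 12, 16, 15 and 9 genes. In C5K13A they were 0.28, 0.09, 0.32, 0.15 and 0.33. The level did not end at 25 Mb. Genes from 25 to 40 Mb, which include the histone and MHC clusters, stood at a median of 0.27 for C4K13A and 0.25 for C5K13A over 186 genes. From 40 to 60 Mb, over 85 genes, the medians were -0.20 and 0.10, and above 60 Mb, over 239 genes, 0.01 and -0.03.

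In C4K13A the sign turned near 42 Mb, a position picked after the values were seen. From 25 Mb up to C6orf132 (start 42101118), 157 of 199 genes lay above the autosomal median in C4K13A and 147 in C5K13A. From C6orf132 to 60 Mb 10 of 72 did in C4K13A (median -0.25) and 38 of 72 in C5K13A (median 0.09). The difference between the clones was -0.07 over the 71 members and 0.39 over those 72 genes, with no test of either. Among 25 Mb windows of all autosomes with 20 or more genes, that of the members had the highest median in each clone. The stretch was selected on these fold changes, so its rank is no separate result. In C4K13A the other 119 ran from -0.42 (chromosome 3, from 75 Mb) to 0.30 (chromosome 16, from 50 Mb), against 0.31 for the members. In C5K13A they ran from -0.23 to 0.21, against 0.23 for the members, and the highest was the next window of chromosome 6.

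**Figure D4:**
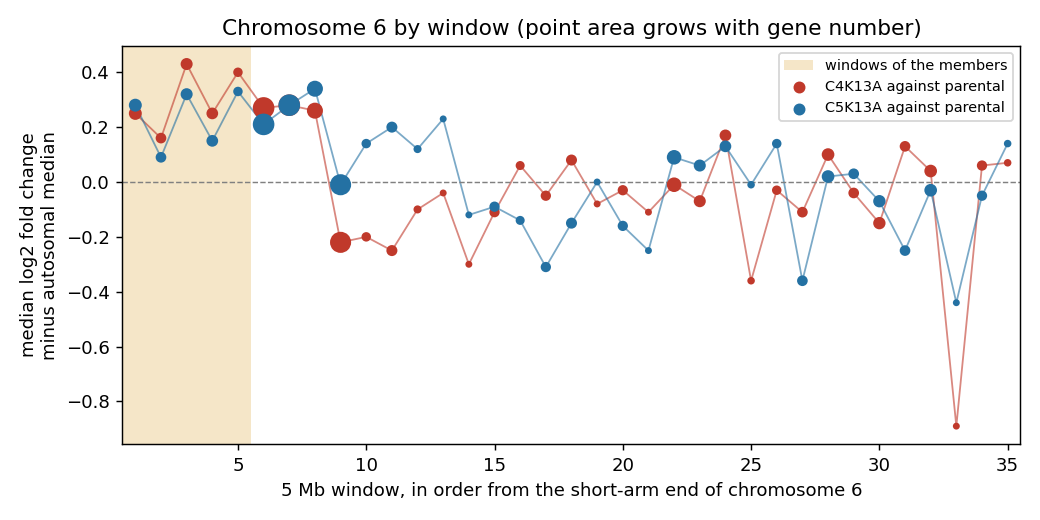
Median log2 fold change minus the autosomal median (y axis) in each 5 Mb window of chromosome 6, in order from the short-arm end (x axis), for C4K13A in red and C5K13A in blue. Both lines are positive over the shaded windows of the members and the 3 windows after them, and the C4K13A line drops to -0.22 in the next.

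At the edges of the rule, FOXQ1 (2.02 CPM) and ID4 (3.42 CPM) were the members of lowest mean CPM. Their fold changes were 2.38 and 2.35 in C4K13A, and 1.36 and 2.44 in C5K13A. FOXQ1, another forkhead factor, had 0.504 and 0.847 CPM in the parental libraries, 1.02 and 6.02 CPM in those of C4K13A, and 1.73 CPM in the C5K13A library. Just below the minimum, GMPR (1.94 CPM) and CD83 (1.37 CPM) had 0.01 and -0.23 in C4K13A, and 0.83 and -1.12 in C5K13A. At the 25 Mb limit, C6orf62 and GMNN inside had 0.26 each in C4K13A, and CARMIL1 and SLC17A1 outside had 0.04 and -0.87. In C5K13A the values were 0.42 and 0.48 inside and -0.04 and -1.45 outside.

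The members' difference was also taken with the libraries split by mitochondrial ribosomal RNA, although the levels still differed within each side. Each side held at most 1 library per group, and for parental and C4K13A the split was the same as library number. The part of mitochondrial ribosomal RNA in the members' difference was therefore not tested. Between the libraries with less of it, C4K13A library 1 and parental library 1, the median difference was 0.25 relative to the autosomal median. Between those with more, it was 0.37 for C4K13A library 2 and 0.32 for C5K13A, each against parental library 2. Pairs across the split gave 0.25 for C4K13A library 2 and 0.21 for C5K13A, each against parental library 1. For C4K13A library 1 against parental library 2 the value was 0.34.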

How the data were processed

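Gene expression was measured by RNA sequencing in 5 libraries of C4-2B cells, grouped by sample title. Per the labels' protocols, column-purified total RNA was cleared of DNA and ribosomal RNA before Illumina sequencing. The submitters' processing notes name STAR 2.5, bcl2fastq and Subread's featureCounts 1.4.6-p5. The authors deposited raw counts, whole numbers for each gene with no scaling. For genome build, annotation and strand setting, the answer is not given in the sources used here.

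Symbols and positions came by Ensembl ID from GENCODE v29 (GRCh38). Counts were tested with edgeR 4.0.16 in R 4.3.3 (filterByExpr, TMM, glmQLFit, glmQLFTest, Benjamini-Hochberg over all genes, threshold 0.05). Each clone was compared with parental, and the clones with each other, in a 3-group fit (2 residual degrees of freedom), which lends the spread of the other groups to the lone C5K13A library. Both clones together came from a 2-group fit (3 residual degrees). A standard error is the absolute log2 fold change over the square root of F. CPM uses TMM factors. Medians are set against autosomal protein-coding genes at 2 CPM or more. The function was tested on simulated data with planted changes larger than the members' median shift, so that test does not cover shifts of this size.

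Named are members called in any comparison, the 5 largest and 5 smallest fold changes per clone at 5 CPM or more, the 5 of highest mean CPM, and up to 3 per role list. CDKAL1, LYRM4, JARID2, PAK1IP1, TDP2, ACOT13, BMP6, FOXQ1, E2F3, TMEM14B, MRS2 and the genes at the rule's edges were named after their values were seen. Members and lists were chosen with earlier results of these data known. Alternatives used DESeq2 1.42.0 and limma-voom (limma 3.58.1), other scalings and filters, a replicate block and each library left out.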

Additional observations from a re-analysis of the deposited data

How the results depend on the processing

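The members' median above the autosomal one kept its sign in every alternative run: 0.19 to 0.39 in C4K13A, 0.16 to 0.33 in C5K13A, 0.18 to 0.37 for both clones together and -0.11 to -0.03 between the clones. Other scalings, filters, tools, CPM minimums and region limits moved it by less than the pooled SD of same-group libraries (0.06), to which the parental pair, 0.12 apart, gave nearly all. With 1 library left out it ran over 0.232 to 0.394 in C4K13A, 0.208 to 0.327 in C5K13A and 0.210 to 0.370 for both, moves of less than the difference between the parental libraries. Alternatives added after seeing the data moved it too. Without members that overlap an opposite-strand gene it was 0.186, 0.160 and 0.182. Between single libraries of low mitochondrial ribosomal RNA it was 0.248 in C4K13A, and between those of high 0.373 in C4K13A and 0.320 in C5K13A. Against parental library 1, C4K13A library 2 also gave 0.248 and C5K13A gave 0.207. Against parental library 2, C4K13A library 1 gave 0.338.

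Counts of called members varied with the tool and filter. Without a filter 12 were called in C4K13A (3.6% of all genes), 1 in C5K13A (1.54%), 2 between the clones (1.13%) and 11 over both clones (3.12%). DESeq2 called 10 in C4K13A (3.64%) and 7 over both clones (2.78%). Leaving out a library gave 0 to 11 in C4K13A, 0 to 1 in C5K13A and between the clones, and 0 over both clones. Parental and C4K13A libraries share replicate numbers, and deviations of same-numbered libraries correlated across genes at r = 0.314, but with 2 pairs this does not show a pairing. With a replicate block 9 members were called in C4K13A (3.42% of all genes) and 1 in C5K13A (1.34%). The cause of these differences was not tested.

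Signs of small single-gene fold changes turned in 20 cases, and 40 gained a call. Over the libraries left out, the values in C4K13A ran from -0.73 to 0.24 for RBM24, -0.69 to 0.56 for DSP, -0.47 to 0.10 for CAP2, -0.41 to 0.13 for SOX4, -0.20 to 0.17 for HIVEP1, -0.19 to 0.10 for NRN1 and -0.01 to 0.37 for TXNDC5. In C5K13A they ran from -0.34 to 0.64 for RBM24, -1.05 to 0.20 for DSP, -0.26 to 0.24 for CAP2, -0.30 to 0.02 for GMDS, -0.07 to 0.31 for TXNDC5, -0.08 to 0.14 for ECI2, -0.01 to 0.44 for KIF13A and -0.08 to 0.67 for MYLIP. ECI2 was also -0.02 with the stricter filter and -0.03 with upper-quartile factors.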

Other observations

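The stretch also holds genes that the members' rule leaves out. Of the 37 protein-coding genes below 2 CPM, 21 were tested, and 10 of them lay above the autosomal median of expressed genes in C4K13A and 8 in C5K13A. Their medians relative to it were -0.03 and -1.03, and those of all 3006 tested autosomal protein-coding genes below 2 CPM were -0.32 and -0.57. Of 15 lincRNA and antisense genes of the stretch at 0.5 CPM or more, 10 lay above the same median in C4K13A and 9 in C5K13A, with medians of 0.05 and 0.11. The 1393 autosomal genes of those classes stood at -0.25 and -0.22. The 17 pseudogenes of the stretch had medians of -0.18 and -0.08, against -0.06 and -0.08 for 1876 autosomal pseudogenes, whose reads are uncertain because of their near-identical parent genes.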
